A study of Schizosaccharomyces pombe with 127 samples.

Results

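RNA polymerases I, II and III are the multisubunit enzymes that transcribe nuclear genes, and the values reported here are the messenger RNA levels of the genes for their subunits in fission yeast (Schizosaccharomyces pombe). The genes were chosen by name, as every gene whose symbol in the array's annotation is rpa, rpb or rpc followed by digits alone, plus nuc1, and 30 of the 4929 array features met this rule. Of these, 6 encode subunits found in polymerase I alone (nuc1, rpa2, rpa12, rpa34, rpa43 and rpa49) and 7 encode subunits of polymerase II alone (rpb1, rpb2, rpb3, rpb4, rpb7, rpb9 and rpb11). A further 10 encode subunits of polymerase III alone (rpc1, rpc2, rpc11, rpc17, rpc25, rpc31, rpc34, rpc37, rpc53 and rpc82), 2 are shared by polymerases I and III (rpc19 and rpc40) and 5 are shared by all 3 enzymes (rpb5, rpb6, rpb8, rpb10 and rpc10). The rule leaves out ker1, a further polymerase I subunit gene.

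The strains each lacked 1 gene, a protein kinase gene in all but 4 of the strains with both times (atf1, cyr1, cgs1 and rst2). Each was sampled during log-phase growth in minimal medium with nitrogen (0 min) and after 60 min without nitrogen, and a wild-type strain was sampled once at each time. Every array was a 2-colour hybridisation that set Cy5-labelled RNA of the strain beside Cy3-labelled RNA pooled from wild-type cells, the common reference. There were 63 deletion strains at 0 min and 62 at 60 min, with 1 array per strain and time, and hal4 had the 0 min array alone.

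All levels are log2 ratios of the strain to the pool, taken relative to the median probe of the array and averaged over the 2 probes of a gene. A change is the 60 min level minus the 0 min level of the same strain, so that -1 means a level lower by a factor of 2 relative to the median probe. The limma test was run on the 62 paired strains over all features, with Benjamini-Hochberg adjustment, and its p-values measure the spread between strains, since no strain was repeated. Because every array was scaled to its own median, a change in the total RNA of a cell is not seen. In these bulk cultures fewer cells of a kind and less RNA per cell cannot be told apart.

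Before the results, the arrays were checked against their labels. Of the strains with a probe for their deleted gene, 52 of 62 at 0 min and 47 of 61 at 60 min had a lower level of it than any other deletion array. In 6 strains (atf1, byr1, ppk22, cdk11, ppk33 and srb10) it was the lowest at 0 min but not at 60 min. The 60 min wild-type array carries a wild-type title while another of its labels names a kinase deletion, and it was used by its title. At 0 min, where strains lie close to the pool, 9 of 2016 array pairs had a correlation across probes under -0.3, with a minimum of -0.42. At 60 min the lowest correlation was 0.65. The direction of every ratio follows the dyes in the labels.

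Polymerase I makes the precursor of the large ribosomal RNAs, polymerase II makes messenger RNA and many small nuclear RNAs, and polymerase III makes transfer RNA and the smallest ribosomal RNA. The enzymes share a common core, with a largest and a second largest subunit that form the active site, an alpha-like pair that nucleates assembly, a stalk that protrudes from the core and a set of small subunits common to all of them. Ribosome production takes up most transcription in growing yeast, and yeasts reduce it when nitrogen runs out. The roles given below for small subunits rest largely on work in budding yeast.

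After 60 min without nitrogen, the messengers of all 6 polymerase I subunits and of both subunits shared with polymerase III fell at least 2-fold, those of polymerase III alone fell less on average, and those of polymerase II changed least. Of the 30 subunit genes 28 were lower at an adjusted p under 0.05, where 40.5% of all features were lower. The 28 include rpc82, whose direction depended on the probe. The other 2 of the 30, rpb1 and rpb2 of polymerase II, were higher, as were 46.9% of all features. At this sample size most features passed that threshold, so the size of a change is the more informative measure. At least a 2-fold lower level was found for 13 of the 30 genes, against 8.76% of all features, and for 6 of 6 polymerase I genes, 0 of 7 polymerase II genes, 2 of 10 polymerase III genes, 2 of 2 shared by I and III, and 3 of 5 shared by all. None was at least 2-fold higher, against 7.53% of all features. Quantile normalization, which gives all arrays the same distribution, left 6 of these 13 genes at least 2-fold lower, against 6.15% of all features under that setting: nuc1, rpa12, rpa49, rpc34, rpc19 and rpc40. The first probe alone gave 10 subunit genes at least 2-fold lower (458 of the 4929 features) and the last probe alone 12 (467 features). Neither gave all 6 polymerase I genes, since rpa2 changed by -0.74 at the first probe and rpa43 by -0.96 at the last.

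The median change was -0.73 over the 30 subunit genes and 0.04 over all features. By class it was -1.35 for polymerase I, -0.32 for polymerase II, -0.58 for polymerase III, -1.50 for the genes shared by I and III and -1.01 for those shared by all. A lower level in every one of the 62 strains was seen for 16 of the 30 genes, against 11.8% of all features. These comprised 6 of 6 polymerase I genes, 0 of 7 polymerase II genes, 5 of 10 polymerase III genes, 2 of 2 shared by I and III and 3 of 5 shared by all. For 5 genes every 60 min level lay below every 0 min level, against 4.5% of all features: nuc1, rpc2, rpc34, rpc40 and rpb5.

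**Figure D1:**
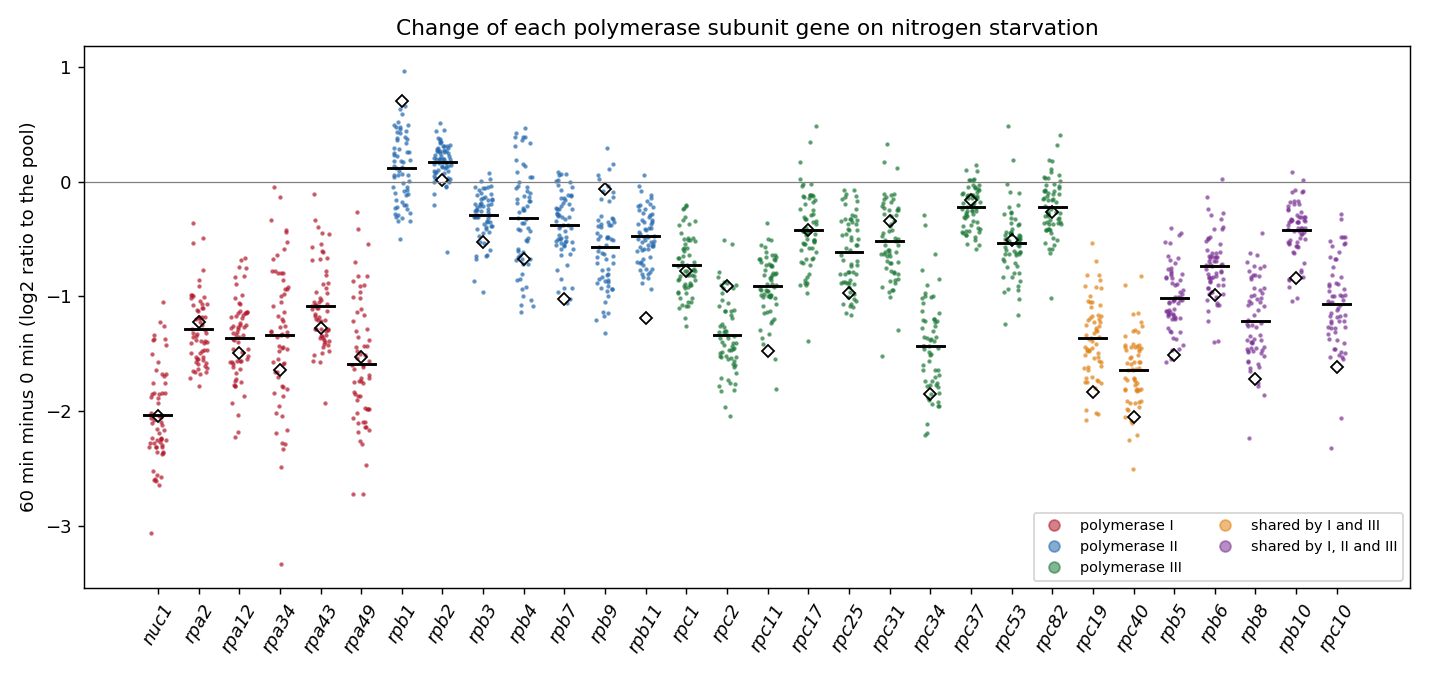
Change of each of the 30 subunit genes on nitrogen starvation (60 min minus 0 min, log2 ratio to the wild-type pool). Each point is 1 of 62 deletion strains, the bar is their mean and the open diamond is the single wild-type pair. All points of the 6 polymerase I genes lie below 0, while those of rpb1 and rpb2 lie on both sides with means of 0.12 and 0.17.

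Within polymerase I, nuc1 had the largest mean change, except at the last probe of each gene alone, where rpa2 (-1.83) and rpa49 (-1.59) fell more than nuc1 (-1.55). It encodes the largest subunit, which carries part of the active site. Its 0 min levels ran from -0.73 through a median of 0.12 to 1.15, and its 60 min levels from -2.56 through -1.91 to -0.98. The ranges do not touch, and even the strain with the highest 60 min level was below the strain with the lowest 0 min level. The mean change was -2.03 (SD 0.41, n = 62), a 4.1-fold lower level (limma, adjusted p = 9.63e-47). Its probes gave -2.52 and -1.55, so the size but not the direction depended on the probe.

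The next largest mean change in this class was that of rpa49 (with quantile normalization that of rpa12, at -1.36 against -1.12), which with rpa34 forms a pair resembling the initiation factor TFIIF. Levels of rpa49 at 0 min had a lowest value of -0.77, a median of 0.12 and a highest of 0.77, and those at 60 min had -2.33, -1.66 and -0.54. The ranges overlap slightly, with 3 strains at 60 min above the lowest 0 min strain. The mean change was -1.59 (SD 0.54, n = 62; limma, adjusted p = 1.63e-33). Its partner rpa34 changed by -1.33 on average with an SD of 0.62, the widest of the 30 genes. The lowest rpa34 change was -3.33 in ppk25 and the highest -0.05 in the strain labelled chk1. With quantile normalization the mean rpa34 change was -0.56.

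The small subunit rpa12 takes part in transcript cleavage and termination. Its 0 min levels ran from -1.13 through 0.37 to 0.91 and its 60 min levels from -2.27 through -0.96 to -0.18. Every strain was lower at 60 min. As ranges the groups overlap in 46 strains, but this rests on the 0 min array of cyr1; without cyr1 the lowest 0 min level is -0.23 and 1 strain at 60 min lies above it. On average it changed by -1.36 (SD 0.35, n = 62; limma, adjusted p = 2.54e-40). The levels of this gene differed by the array number in the titles, a pattern picked out after its values were seen. In the 6 strains with an array number of 1200 or above in a title the 60 min levels lay between -2.27 and -1.51, and in the other 56 between -1.57 and -0.18. At 0 min the same 6 strains spanned -1.13 to 0.18 and the others -0.04 to 0.91. The 6 strains are ppk18, ppk27, ppk32, cyr1, cgs1 and rst2, so array number and genotype cannot be told apart. The part of either in these levels was not tested.

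The second largest subunit, rpa2, completes the active site. Levels of rpa2 ran from -0.90 through 0.01 to 0.43 at 0 min and from -1.72 through -1.29 to -0.52 at 60 min. At 60 min 4 strains exceeded the lowest 0 min strain, cyr1, and without cyr1 the next lowest 0 min level is -0.37 and none did. The mean change was -1.28 (SD 0.30, n = 62; limma, adjusted p = 3.22e-42), but its probes disagreed on the size, with -0.74 and -1.83. The stalk subunit rpa43, which contacts the initiation factor Rrn3, changed by -1.08 (SD 0.35), with a range over strains from -1.93 in the strain labelled mde3 to -0.11 in the strain labelled chk1. Its stalk partner ker1, looked up after the other values were seen, changed by -1.12 (SD 0.43) and was lower in 62 of 62 strains (limma, adjusted p = 2.53e-30).

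The genes shared by polymerases I and III had changes of a size similar to those of polymerase I alone. rpc40 and rpc19 encode the alpha-like pair of these enzymes, the counterpart of rpb3 and rpb11 in polymerase II. Levels of rpc40 ran from -0.65 through 0.12 to 0.68 at 0 min and from -2.14 through -1.56 to -0.74 at 60 min. The groups do not overlap. The mean change was -1.64 (SD 0.31, n = 62), a 3.12-fold lower level (limma, adjusted p = 5.89e-48). For rpc19 the levels were -0.61, 0.13 and 0.73 (lowest, median and highest) at 0 min and -1.86, -1.24 and -0.59 at 60 min. Here 2 strains at 60 min lay above the lowest 0 min strain, cyr1, and none above the next lowest (-0.37) without it. The mean rpc19 change was -1.37 (SD 0.34, n = 62; limma, adjusted p = 2.57e-41). The alpha-like pair of polymerase II changed by -0.29 (rpb3, SD 0.21) and -0.48 (rpb11, SD 0.23).

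Among the polymerase III genes, rpc34 and rpc2 had the largest mean changes. rpc34 belongs, with rpc31 and rpc82, to a trimer that joins the enzyme to its initiation factors. The rpc34 levels ran from -0.30 through 0.12 to 0.61 at 0 min and from -2.16 through -1.32 to -0.52 at 60 min, with no overlap. Its mean change was -1.43 (SD 0.41, n = 62), 2.7-fold lower (limma, adjusted p = 1.59e-37). The other members of the trimer moved less, with -0.52 for rpc31 (SD 0.34) and -0.22 for rpc82 (SD 0.25), whose probes disagreed in direction.

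The second largest subunit, rpc2, had 0 min levels of -0.61, -0.16 and 0.19 (lowest, median and highest) and 60 min levels of -2.19, -1.57 and -0.76. Again the ranges do not touch. Its mean change was -1.34 (SD 0.33, n = 62; limma, adjusted p = 2.1e-41), with -0.82 from one probe and -1.85 from the other. With quantile normalization it was -0.67, a smaller fall than the -0.74 of rpc11. The largest subunit, rpc1, changed by -0.73 (SD 0.26) and was lower in 62 of 62 strains, and by -0.39 with quantile normalization. The small subunit rpc11, which acts in transcript cleavage and termination, ran from -0.40 through 0.13 to 0.71 at 0 min and from -1.68 through -0.81 to -0.25 at 60 min. Its ranges overlap by 2 strains, and its mean change was -0.91 (SD 0.27, n = 62; limma, adjusted p = 2.11e-36).

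The remaining polymerase III genes changed by less. The stalk subunits rpc25 and rpc17 changed by -0.62 (SD 0.32, lower in 62 strains) and -0.42 (SD 0.33, lower in 58). The TFIIF-like pair rpc37 and rpc53 changed by -0.22 (SD 0.18, lower in 55 strains) and -0.53 (SD 0.29, lower in 60). Levels of rpc53 ran from -0.50 through 0.11 to 0.53 at 0 min and from -0.98 through -0.46 to 0.44 at 60 min, and those ranges overlap over most of their length. Its probes gave -0.91 and -0.16 (limma on their mean, adjusted p = 1.28e-21).

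For rpc82 the direction itself depended on the probe. Its levels were -0.70, -0.21 and 0.31 at 0 min and -0.84, -0.40 and 0.11 at 60 min, as lowest, median and highest. The groups overlap almost entirely, with 57 strains at 60 min above the lowest 0 min strain. The mean change of -0.22 (limma, adjusted p = 2.23e-09) came from -0.72 at one probe and 0.28 at the other. Quantile normalization turned it to 0.069, so no direction is given for this gene.

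**Figure D2:**
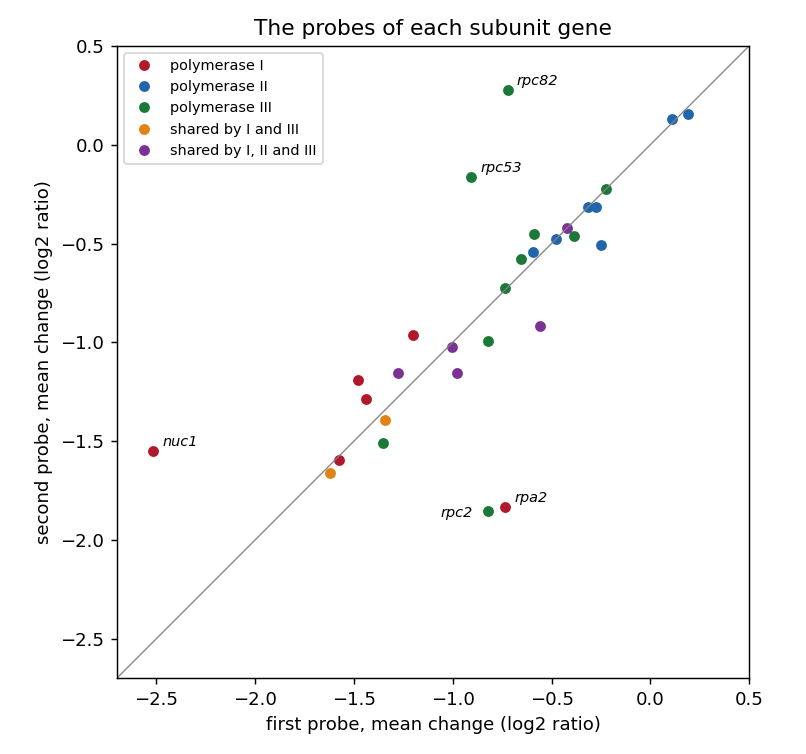
Mean change of each subunit gene at its first and second probe (60 min minus 0 min, log2 ratio, mean of 62 strains); the grey line marks equal values. Most genes lie near the line, and the 5 named genes differ between probes by more than 0.5, among them rpc82, with -0.72 and 0.28.

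In polymerase II the 2 largest subunits were not lower after starvation. The largest, rpb1, carries the C-terminal repeat domain that is phosphorylated during transcription. Its levels ran from -1.19 through -0.27 to 0.46 at 0 min and from -1.05 through -0.13 to 0.74 at 60 min. The ranges overlap almost completely, and the level was higher in 39 strains and lower in 23. The mean change was 0.12 (SD 0.31, n = 62; limma, adjusted p = 0.00376), smaller than the spread between strains, and 0.51 with quantile normalization. The second largest, rpb2, ran from -0.43 through -0.03 to 0.47 at 0 min and from -0.15 through 0.13 to 0.40 at 60 min, so that the 60 min levels lay inside the 0 min range. The top of that range is rst2 alone, and without rst2 the highest 0 min level is 0.12 and 32 of the other 61 strains lie above it at 60 min. The mean rpb2 change was 0.17 (SD 0.17, n = 62; limma, adjusted p = 2.55e-10), with a higher level in 55 strains.

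The smaller polymerase II subunits were lower by modest amounts. rpb9, a zinc-ribbon subunit related to rpa12 and rpc11, had levels of -0.95, -0.18 and 0.65 at 0 min and -1.67, -0.70 and -0.20 at 60 min (lowest, median and highest). With 48 strains at 60 min above the lowest 0 min strain the ranges overlap widely, and the mean change was -0.57 (SD 0.37, n = 62; limma, adjusted p = 1.22e-18), or -0.22 with quantile normalization. Its relatives in the other enzymes had larger mean changes, -1.36 for rpa12 and -0.91 for rpc11.

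For rpb11 the levels ran from -0.71 through -0.06 to 0.78 at 0 min and from -1.14 through -0.54 to 0.25 at 60 min. The overlap takes in 51 of the 60 min levels, with a mean change of -0.48 (limma, adjusted p = 3.88e-24), or -0.26 with quantile normalization. The stalk subunit rpb7 went from -0.57, 0.11 and 0.65 to -0.85, -0.29 and 0.33 (lowest, median and highest). Its mean change was -0.38 (SD 0.29, n = 62; limma, adjusted p = 2.16e-15), with 57 strains at 60 min above the lowest 0 min strain. The stalk partner rpb4 changed by -0.32 with an SD of 0.43, from -1.13 in the strain labelled mde3 to 0.47 in tea5, and was lower in 48 strains. The -0.29 of rpb3 came with a lower level in 59 strains.

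The mean change of the subunits common to all 3 enzymes lay between those of the polymerase I and polymerase II classes, while single genes crossed them, with rpb8 below rpa43 and rpb10 above rpb9 and rpb11. rpb8 ran from -0.78 through 0.09 to 0.73 at 0 min and from -1.98 through -1.14 to -0.61 at 60 min, with 3 strains in the overlap, and 0 without ppk1, the lowest at 0 min. The mean rpb8 change was -1.22 (SD 0.35, n = 62; limma, adjusted p = 4.88e-37). rpc10, a small zinc-binding subunit, ran from -0.74 through 0.05 to 1.16 and then from -1.83 through -1.04 to -0.17, with 11 strains in the overlap and a mean change of -1.07 (SD 0.39, n = 62; limma, adjusted p = 1.46e-31).

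The ranges of rpb5 were apart, with -0.35, 0.03 and 0.53 at 0 min and -1.31, -0.99 and -0.48 at 60 min (lowest, median and highest). Its mean change was -1.01 (SD 0.27, n = 62; limma, adjusted p = 8.8e-39). The remaining common subunits changed less, with -0.74 for rpb6 (SD 0.28, lower in 61 strains) and -0.42 for rpb10 (SD 0.24, lower in 60).

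The position of a subunit in the enzyme could be compared directly for the catalytic pair, in 6 comparisons chosen after the values were seen. Between the largest subunits, nuc1 minus rpb1 was -2.15 (SD 0.44) and nuc1 minus rpc1 was -1.31 (SD 0.32), below 0 in 62 of 62 strains for both. Over probe choices they ran from -2.64 to -1.66 and from -1.79 to -0.82. The rpb1 change exceeded that of rpc1 by 0.85 (SD 0.35), in 62 of 62 strains. Between the second largest, rpa2 minus rpb2 was -1.46 (SD 0.33) and rpb2 minus rpc2 was 1.51 (SD 0.38), again with 1 direction in all 62 strains, and over probe choices from -2.02 to -0.89 and from 0.98 to 2.04. Each of these 5 differences had a permutation p of 2e-05 from random sign changes over strains (two-sided, 100000 resamples, the smallest these can give), and 2e-05 after adjustment over the 6 comparisons. Since all 62 strains already shared 1 direction when these pairs were chosen, a p at this floor was given in advance and adds no support. rpa2 and rpc2 did not differ detectably, with a mean difference of 0.05 (SD 0.31), rpa2 the lower in 25 of 62 strains and a permutation p of 0.179. Their probes disagree so far that the difference runs from -1.01 to 1.12 over probe choices, so no order can be given.

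Averaged over the genes of a class, the change was -1.45 for polymerase I (SD 0.31 over strains), -0.25 for polymerase II (SD 0.10), -0.69 for polymerase III (SD 0.16), -1.50 for the genes shared by I and III (SD 0.30) and -0.89 for those shared by all (SD 0.22). These class means are given as a description, without a test. The polymerase I mean was below the polymerase II mean in 62 of 62 strains, by 1.20 on average, and below the polymerase III mean in 62 of 62, by 0.75. The polymerase III mean was below the polymerase II mean in 62 of 62, by 0.45. The order of neighbouring classes was less fixed, since the polymerase I mean was below the mean shared with III in 27 strains, and the polymerase III mean was below the mean shared by all in 5. With quantile normalization polymerase I was below polymerase II in 62 strains and below polymerase III in 59.

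**Figure D3:**
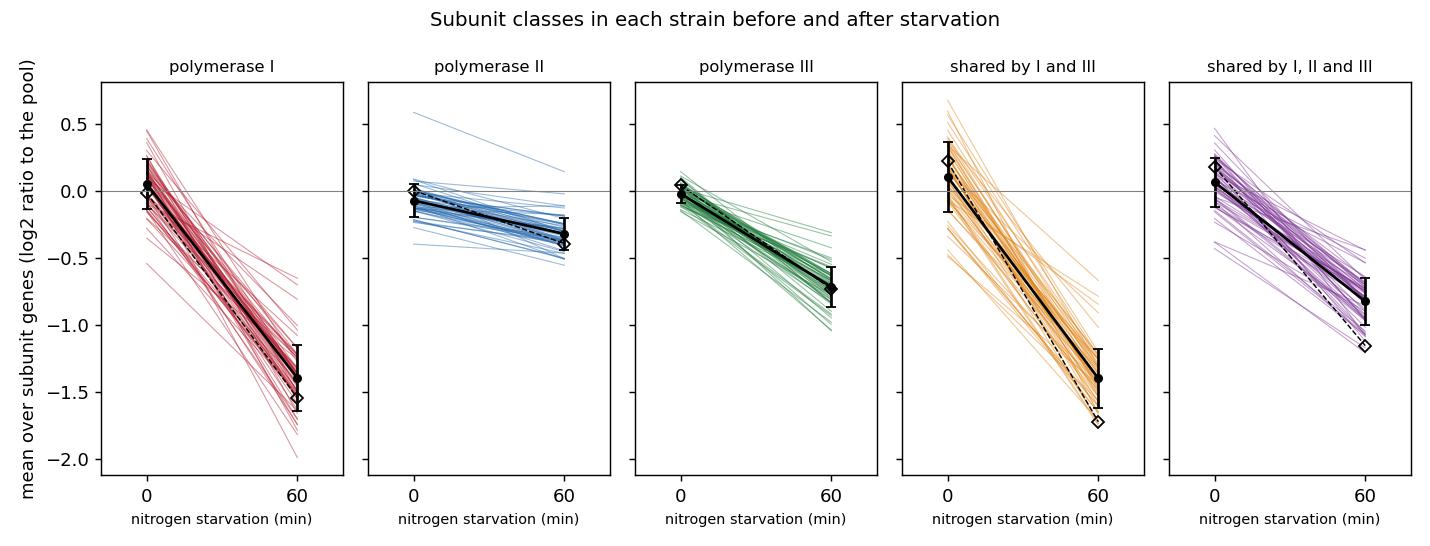
Mean level of each subunit class in every strain at 0 and 60 min of nitrogen starvation (log2 ratio to the wild-type pool). Coloured lines join the arrays of 1 of 62 deletion strains, black circles with bars give the mean and SD over strains, and open diamonds with dashed lines give the single wild-type strain. The polymerase I mean fell from 0.05 to -1.39 and the polymerase II mean moved from -0.07 to -0.32.

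The wild-type pair, 1 array at each time, had class changes of -1.53 for polymerase I, -0.40 for polymerase II, -0.77 for polymerase III, -1.94 for the genes shared by I and III and -1.33 for those shared by all. The polymerase I value sat inside the deletion strains, with 26 of 62 below it. The value shared by all was near their lower end, with 2 strains below it, and the polymerase II value had 3 strains below it. Single genes in wild type lay at either end: rpb11 changed by -1.19, lower than in any deletion strain, and rpb1 by 0.70, higher than in 61 of 62. Its 0 min array carries a number above 1200 in its title and its 60 min array a number below, unlike the pair of any deletion strain. With 1 array per time and its label in question at 60 min, the wild type has no replicate and was not tested against the deletion strains.

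The SD over strains was 0.31 for polymerase I and 0.30 for the genes shared by I and III, and with quantile normalization the order turned, to 0.36 and 0.42. That normalization also gave polymerase II an SD of 0.17, above the 0.13 of polymerase III. The 3 lowest polymerase I changes were -2.11 in ppk25, -2.05 in the strain labelled mde3 and -2.02 in hhp1, which lacks a casein kinase I. The 3 highest were -0.79 in ppk22, -0.76 in hhp2, which lacks the other casein kinase I of this pair, and -0.56 in the strain labelled chk1, which by its label lacks the DNA damage checkpoint kinase. In chk1 and mde3 the deleted gene had its lowest level in another strain's array at both times, and in ppk22 at 60 min. ppk25 was also the lowest for polymerase III (-1.04), and the strain labelled chk1 the highest for polymerase III (-0.31) and for the genes shared by all (-0.39). The strain labelled mde3 was the lowest for both shared classes, with -2.27 and -1.55, and hhp2 the highest for the genes shared by I and III, with -0.71. For polymerase II the mean change ran from -0.54 in fin1, which lacks a NIMA-related mitotic kinase, to 0.02 in hhp2. Outside polymerase I, quantile normalization left only the strain labelled mde3 in its place, the lowest for both shared classes. The lowest strain was then spk1 for polymerase III and rst2 for polymerase II. The highest were mak2 (polymerase III), dsk1 (polymerase II), ppk1 (shared by I and III) and ppk26 (shared by all).

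**Figure D4:**
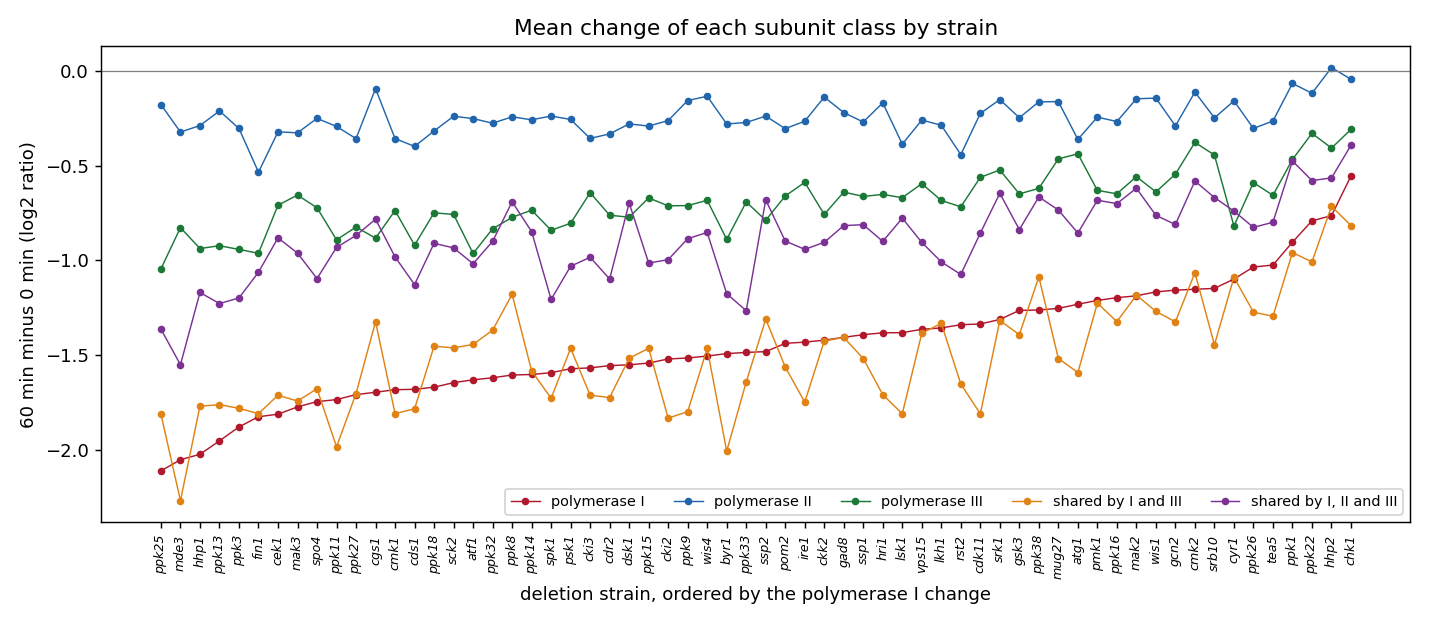
Mean change of each subunit class (60 min minus 0 min, log2 ratio) in the 62 deletion strains, ordered by the polymerase I change from ppk25 (-2.11) to the strain labelled chk1 (-0.56). In these median-centred values the polymerase II line is the highest throughout and varies least, and the polymerase III and shared lines rise along with that of polymerase I.

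The size of the whole response moved along with this order. The SD of the change over all features, a measure of how far an array pair moved in either direction, was 1.24 in ppk25, the highest of the 62 strains, and 1.20 in mde3. It was 0.69 in ppk22, the lowest, 0.76 in chk1 and 0.79 in hhp2, with a median of 0.98. The exception was hhp1, at 1.01, rank 39 of 62. Over the 62 strains this SD and the polymerase I change had a correlation of -0.77 (Spearman -0.73, and Pearson -0.74 without the 2 strains farthest from the median). With quantile normalization the order changed: cek1 (-1.89) and ppk13 (-1.78) became the lowest, mde3 ranked 6, ppk25 9, ppk22 39 and hhp2 55 of 62, and ppk26 and ppk1 ranked 60 and 61. The strain labelled chk1 had the highest change there too (-0.24), and hhp1 ranked 3 (-1.68). The part of the overall response size in the strain order was not tested.

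The class changes also moved with each other, on arrays they share. Polymerase I and III changes correlated at 0.83 over the 62 strains (Spearman 0.81, and Pearson 0.79 without the 2 farthest strains), and at 0.56 with quantile normalization. Polymerase I and II changes correlated at 0.50 (Spearman 0.43). Among single genes, pairs of polymerase I genes had a median correlation of 0.39 over 15 pairs, from 0.04 to 0.78, and pairs of polymerase III genes 0.23 over 45 pairs. Pairs of polymerase II genes had a median of -0.04 over 21 pairs, from -0.60 to 0.55. Pairs across classes reached similar medians, with 0.35 for polymerase I with polymerase III genes and 0.35 for polymerase I with those shared by all. Polymerase I genes with those shared by I and III had 0.52, and with polymerase II genes 0.06. The correlation was thus not particular to genes of the same class. The median over all pairs of features was 0.004. These are descriptions of genes measured on the same arrays and carry no p.

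Single genes that stood off in 1 strain at both times were counted after the values were seen. A level at least 0.5 from the mean of the other strains, in the same direction at 0 and 60 min, occurred in 33 of 1860 combinations of gene and strain, over 15 genes and 19 strains. This is 1.77% of the combinations, close to the 1.59% over all features, so the count is not particular to the subunit genes. The strain lacking rst2, a zinc-finger transcription factor, held 6 of the 33. These are 20% of the 30 subunit genes, where 10.2% of all features deviated in that strain. Of them rpa12 was low, and rpa34, rpb4, rpb7, rpb11 and rpc10 were high. Its rpb4 levels were 0.77 at 0 min and 1.16 at 60 min, where the next strain had 0.66. The polymerase II mean of rst2 was the highest of all strains at both times, with 0.59 and 0.14. The 0 min array of rst2 had the widest spread of the 62, with an SD over all features of 0.74 against a median of 0.31, and the part of this spread in the 0 min levels was not tested.

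The strain lacking cyr1, which encodes adenylate cyclase, held 3 of 30, where 12.4% of all features deviated. In it rpa12 (-1.13 and -2.27), rpb6 (-0.79 and -1.39) and rpb10 (-0.59 and -0.84) were the lowest of all 62 strains at 0 and at 60 min. Its 0 min class means were the lowest for polymerase I (-0.54) and for the genes shared by all (-0.43). Both rst2 and cyr1 belong to the 6 strains with array numbers of 1200 or above, and the 0 min array of cyr1 had the second widest spread (SD 0.51). For rpb1, 6 strains were low at both times: cds1, cki3, fin1, psk1, gsk3 and the strain labelled spo4, with 0 min levels between -0.99 and -0.81 and 60 min levels between -1.05 and -0.70. For rpb4 there were 7 such strains, with ppk1, ckk2, gcn2 and the strain labelled hri1 low and ppk11, lsk1 and rst2 high. Both genes varied widely over strains, with SDs at 0 and 60 min of 0.39 and 0.37 for rpb1 and 0.45 and 0.43 for rpb4. The limit of 0.5 is not far above these SDs, so several of these strains lie only a little outside the usual spread. In spo4 and hri1 the deleted gene was lower in other arrays at both times. All of these single-strain values rest on 1 array per time and have no replicate.

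The fall of the subunit genes was set beside other genes of the same systems. The polymerase I factors, which act with the enzyme at ribosomal DNA, were measured for 8 of 9 listed genes: 4 were lower, 2 higher and 2 did not pass the test, with a median change of -0.06. For these and the next lists, 40.5% of all features were lower and 46.9% higher. The exception in size was rrn3, the factor that binds polymerase I and makes it competent to initiate. Its levels ran from -0.52 through 0.23 to 0.93 at 0 min and from -1.44 through -0.93 to -0.30 at 60 min. The ranges overlap in part, yet all 62 strains fell, with a mean change of -1.15 (SD 0.37; limma, adjusted p = 1.52e-34). The second largest change was that of hmo1, an HMG-box protein, which rose by 0.42 (SD 0.31, higher in 56 strains).

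Of the polymerase II general initiation factors 31 of 33 listed genes were measured, of which 5 were lower, 16 higher and 10 did not pass, with a median of 0.07. The share higher is near the 46.9% of all features, while the share lower is below their 40.5%. The largest changes were those of tfg2, a TFIIF subunit, at 1.00 (SD 0.34, higher in 62 strains), and tbp1, the TATA-binding protein that serves all 3 polymerases, at 0.94 (SD 0.36, higher in 61). Of 15 polymerase II elongation factors 7 were lower, 4 higher and 4 did not pass, with a median of -0.05. The largest among them were prf1, a factor linked to the Paf complex, at 0.35 (SD 0.31), and ell1, an ELL-type elongation factor, at 0.28 (SD 0.25).

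For polymerase III, 9 of 10 listed factors were measured: 3 were lower, 4 higher and 2 did not pass, with a median of 0.05. The largest change was that of maf1, the conserved repressor of polymerase III. Levels of maf1 ran from -0.37 through 0.02 to 0.70 at 0 min and from 0.30 through 0.92 to 1.67 at 60 min. It rose in every one of the 62 strains, by 0.88 on average (SD 0.29; limma, adjusted p = 8.23e-34), though the ranges overlap. The next was sfc3, a TFIIIC subunit, at 0.57 (SD 0.27, higher in 61 strains).

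The snoRNP core proteins, parts of the particles that modify ribosomal RNA in ribosome production, gave a comparison outside transcription. All 8 were lower, 7 of them at least 2-fold (8.76% of all features), with a median change of -1.74. The largest changes were those of gar1 (-2.59, SD 0.24) and nop58 (-1.84, SD 0.31). Their mean and the polymerase I mean moved together over strains, with a correlation of 0.78 (Spearman 0.72), on shared arrays. This was not particular to polymerase I. The snoRNP mean correlated at 0.75 with the genes shared by all and at 0.74 with those shared by I and III. With polymerase III the correlation was 0.56 and with polymerase II 0.50.

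**Figure D5:**
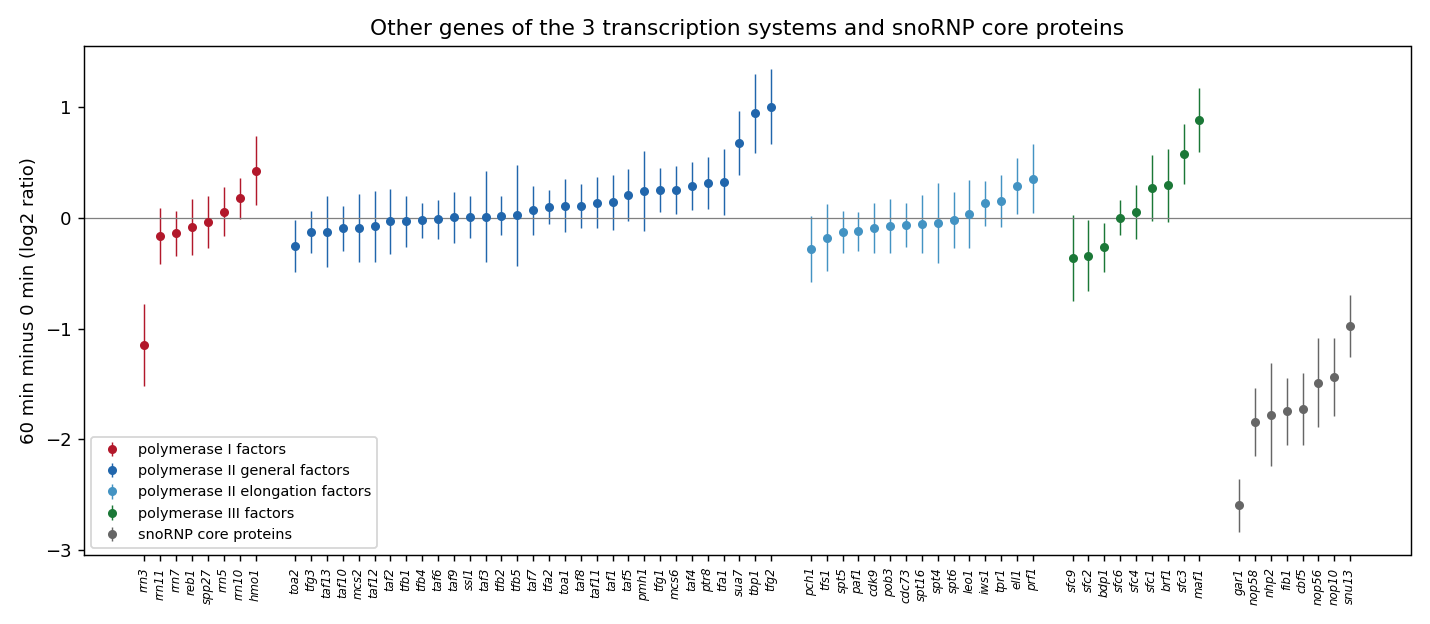
Mean change (60 min minus 0 min, log2 ratio; points) with SD over 62 deletion strains (bars) of the other listed genes of the 3 transcription systems and of the snoRNP core proteins. Most initiation and elongation factors lie near 0, rrn3 lies at -1.15, maf1 at 0.88 and all 8 snoRNP core proteins below 0.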

How the data were processed

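The deposited table holds linear ratios of Cy5 (strain) over Cy3 (wild-type pool) per probe, with dyes taken per the labels. How the authors scaled them is not given in the sources used here. Medians of the arrays lay between 0.932 and 1.093. The table has 9858 probes on 127 arrays, and 6 values of 0 were set to missing. No signal over background is given, so the number of arrays limits the precision. From the deposited ratios were computed log2 values, centred per array and averaged over probes. A gene needed values in 80% of the pairs. Symbols came from the platform annotation and the gene table.

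limma 3.58.1 in R 4.3.3 fitted the change within strains. Python 3.11.15 with numpy 2.4.6, pandas 2.3.3 and scipy 1.17.1 gave class means and permutations. The fit was also run on simulated data. The genes there were drawn independently, unlike the measured genes, which share arrays, so that run checks the code alone. The pairing rests on the shared genotype of a strain's arrays; their deviations from the group means correlated at 0.31 on average (SD 0.21), above 0 in 60 of 62 strains.

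Members and lists were chosen with earlier results of these data known. Full values went to the 3 genes of each class with the largest change, to those against their class's direction and to those whose probes differed by over 0.5; of each list the 2 largest changes were named, and strains by extreme class means. Listed symbols without a match were rrn9, rad15, taf72 and sfc7. The strains labelled prk1 and skp1 are called srb10 and gsk3. The series text names 68 kinase and 5 other deletions. Ranges without a single array, the quantile order of strains and the share of deviating features were added after seeing the data. No sequences or coordinates are given.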

Additional observations from a re-analysis of the deposited data

How the results depend on the processing

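Alternatives were no centring, quantile normalization, either probe alone, class medians, strain subsets, no pairing and a fold threshold of 1.5. Quantile normalization gave class changes of -1.04 (polymerase I), -0.082 (II), -0.46 (III) and -1.14 (shared by I and III), 6 instead of 13 subunit genes at least 2-fold lower, 303 instead of 432 features lower, and 175 instead of 371 features higher. It moved 9 of 30 single genes by over 1.5 times, and the first probe alone moved 5. The rpc82 change reversed to 0.069 under quantile normalization and to 0.28 at the last probe; the cause was not tested. At a fold of 1.5, 762 features were lower (432 at 2-fold), 854 higher and 17 subunit genes lower. Without the replicate block, the pairing by strain, 13 subunit genes and 432 and 371 features were called, as with it. Leaving out the 6 strains whose deleted gene was lowest at 0 min alone gave 13 subunit genes and -1.46 for polymerase I. The strains whose deleted gene was lowest at both times, chosen after seeing the data, gave 12 subunit genes and -1.48 for polymerase I; the 6 strains with array numbers of 1200 or above, also chosen so, gave -1.52, -0.27, -0.80, -1.43 and -0.88 for the 5 classes. With 1 array per strain and time, no single-strain value has a replicate.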
